A study of Arabidopsis thaliana with 75 samples.

Results

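Wild type leaves of Arabidopsis thaliana that had been cut with a blade were compared between 3 and 4 days after the cut. The members were the 6 libraries titled WT 3D and WT 4D, 3 replicates a group, out of 75 libraries in the series. All 6 came from the 8th leaf of plants given as 4 weeks old, and the labels separate them by day alone. Wild type carried no mutation or transgene by its label, and its ecotype is not given. For comparison, wild type leaves at 0h, 2D and 5D and leaves of a line labelled rbohE at 3D and 5D were also used, with 3 replicates each; 4D leaves of rbohE or of the other line, gpat4 gpat8, were not analysed here. The mutant alleles are not named in the labels. Uncut leaves of the later days were not analysed here, so day after wounding, age of the leaf and time of harvest cannot be told apart. Nothing says that the replicates came from separate plants, so p-values measure the spread between these samples, which may be technical.

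A cut through a leaf opens the epidermis, whose outer wall is sealed by the cuticle, a layer of the polyester cutin and of waxes. Plants can reseal exposed tissue with suberin, a wall polyester of fatty acids, fatty alcohols, glycerol and ferulate, often with waxes deposited in it, and with lignin. Ethylene and jasmonate are hormones of the wound and defence responses, and abscisic acid is the hormone of water stress. The title of the series concerns wound-induced barriers and hormone signalling, and the question put here is which of these transcripts still moved between the third and the fourth day.

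Total counts were between 48623674 and 67336926 in the 6 libraries, within the range of 46045188 to 67376782 over all 75. Levels are given as CPM, each count divided by its library total after scaling by the trimmed mean of M values (TMM) and put on a common scale for all libraries. Replicates of a group correlated with Pearson's r between 0.984 and 0.987 across genes, which are not independent replicates. The first principal component of the 6 libraries held 31.72% of the variance and had WT 3D on one side and WT 4D on the other. Summed levels of 5 mesophyll markers, genes of the green leaf tissue, ran from 4837 to 5295 CPM at WT 3D and from 4835 to 5103 CPM at WT 4D. Those of 5 root markers were at most 0.602 CPM, with the root hair genes COBL9 and RHD6 at 0 in all 6 libraries.

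Few genes changed from day 3 to day 4. FAR1 and FACT, enzymes of fatty alcohols and their esters, the lipoxygenase LOX1 and the ethylene-response factor ORA59 rose, from means of 19.6, 21.3, 43.5 and 4.73 CPM to 162, 169, 182 and 25.3 CPM. The suberin exporter ABCG6, the cutin enzyme LACS2 and the stress gene RD29A fell, from means of 360, 191 and 1810 CPM to 162, 89.9 and 883 CPM. Of 23475 genes tested by quasi-likelihood in edgeR, 219 (0.933%) were called, which required a Benjamini-Hochberg adjusted p under 0.05 and an absolute log2 fold change of at least 1. Of these, 90 (0.383%) rose and 129 (0.55%) fell. In whole leaves, fewer cells of a type and less RNA per cell cannot be told apart. With DESeq2 the counts were 97 and 215. By adjusted p alone, 548 genes (2.33%) were higher and 580 (2.47%) were lower. Leaving out replicate 2 of WT 4D lowered the counts to 58 risen and 53 fallen, and leaving out replicate 3 of WT 3D lowered the fallen to 83.

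The neighbouring steps share libraries with this one, and their counts are set beside it only as a scale. The day before, from WT 2D to WT 3D, had 892 calls (3.8%), 598 higher (2.55%) and 294 lower (1.25%). The day after, from WT 4D to WT 5D, had 294 (1.25%), 54 higher (0.23%) and 240 lower (1.02%). Against 0h, WT 3D had 4208 calls (17.9%), 2484 higher (10.6%) and 1724 lower (7.34%), and WT 4D had 4053 (17.3%), 2214 higher (9.43%) and 1839 lower (7.83%). With 1 library left out, WT 5D against WT 4D had from 183 to 315 calls, and with a replicate block both that step and the one from WT 3D to WT 4D had 323. Tested as a difference, it departed from the step before it in 637 genes (2.71%), 107 with the later step more positive (0.456%) and 530 less positive (2.26%). The 107 became 32 without replicate 1 of WT 3D and 206 with a replicate block. It departed from the step after it in 121 genes (0.515%), 49 more positive (0.209%) and 72 less positive (0.307%). The 121 became 32 without replicate 3 of WT 4D, 43 without its replicate 2 and 270 with only the groups compared.

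**Figure D1:**
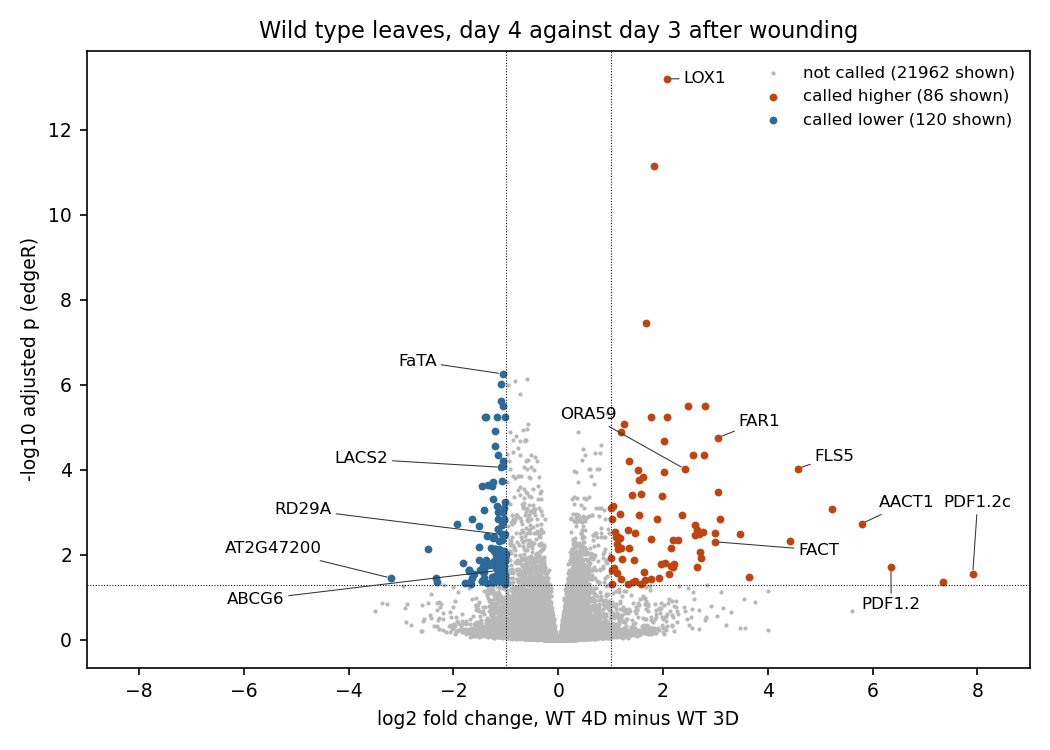
Log2 fold change of each gene from WT 3D to WT 4D (horizontal axis) against its adjusted p from edgeR (vertical axis, -log10), with dotted lines at the thresholds. Red points are 86 genes called higher and blue points 120 genes called lower; genes with a group at the floor, where every library had at most 3 counts, are not drawn. LOX1 had the smallest adjusted p, and the increases reached further from 0 than the decreases.

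The genes that rose most among abundant transcripts included a pair of enzymes that act on fatty alcohols. FAR1 (AT5G22500) encodes a fatty acyl reductase that makes primary fatty alcohols for suberin and its waxes. Its level was 23.2, 19 and 16.4 CPM in the replicates of WT 3D and 150, 165 and 170 CPM in those of WT 4D. Every library of WT 4D lay far above every library of WT 3D, a log2 fold change of 3.05 ± 0.46 (SE, n = 3 a group; adjusted p = 1.76e-05, edgeR). FACT (AT5G63560) encodes a caffeoyl transferase that esterifies fatty alcohols into alkyl caffeates, known as waxes of suberised root tissue. It stood at 27.8, 20.2 and 15.9 CPM at WT 3D and at 154, 174 and 179 CPM at WT 4D. The groups were again well apart, with a log2 fold change of 2.99 ± 0.61 and an adjusted p of 0.00494 (edgeR); DESeq2 did not call FACT, with an adjusted p of 0.705.

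FACT was at or near 0 until the second day. Its mean was 0 at every wild type time up to and including 2D apart from 0.0251 CPM at 1D, then 21.3 ± 6.04 CPM (SD, n = 3) at 3D, 169 ± 13.2 CPM at 4D and 166 ± 16 CPM at 5D. AT3G58550, annotated as a lipid-transfer protein, a class of small proteins that bind lipids, followed a like course. It had at most 0.211 CPM in any wild type library before 3D, and then 50.2, 35.6 and 31.1 CPM at WT 3D and 154, 184 and 184 CPM at WT 4D. Its log2 fold change was 2.16 ± 0.55 with an adjusted p of 0.0187 (edgeR). The call was lost when any library other than replicate 1 of WT 4D was left out, with adjusted p up to 0.0956 (edgeR), and with DESeq2 (adjusted p = 0.6595). FAR1, by contrast, had an earlier peak of 380 ± 58.3 CPM at 4h, fell to 5.89 ± 1.71 CPM at 2D, and was at 185 ± 13.7 CPM at 5D. FAR1 and AT3G58550 each overlap a gene on the other strand. Among genes named below, so do LOX1, RBOHE, COR15B, AT3G23550, AT4G27300, AT2G47200 and AT3G01795. Whether counting used the strand is not given in the sources used here.

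**Figure D2:**
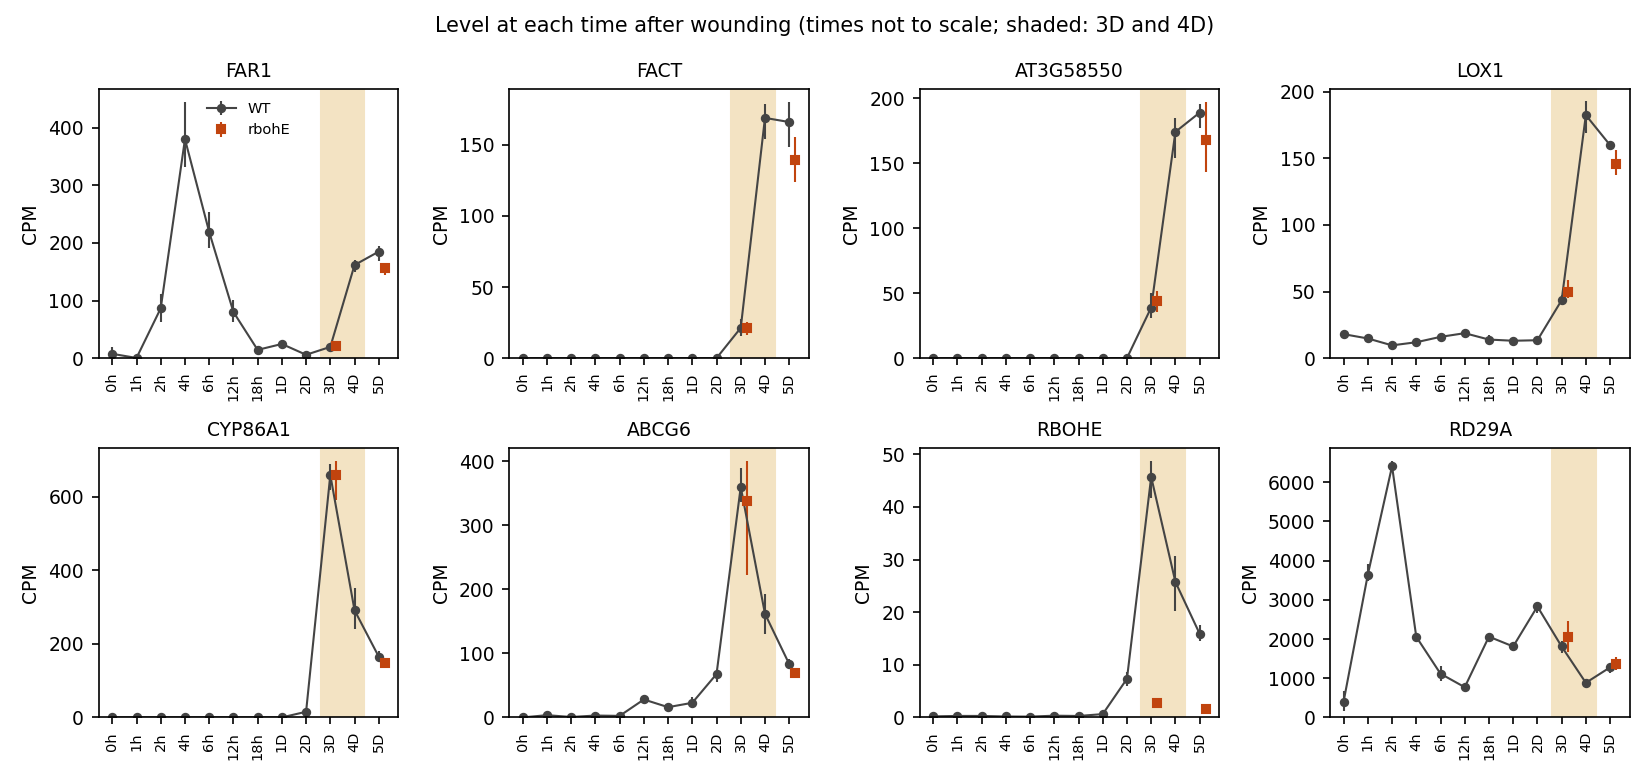
Mean level in CPM of 8 genes at the 12 wild type times (grey line and circles) and in rbohE at 3D and 5D (red squares), with bars from the lowest to the highest of 3 replicates; times are evenly spaced and the 3D and 4D groups are shaded. FAR1, FACT, AT3G58550 and LOX1 were higher at 4D than at 3D and about level to 5D, whereas CYP86A1, ABCG6 and RBOHE peaked at 3D.

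Most other suberin genes had lower levels at WT 4D. The suberin list held 21 genes of polyester synthesis, export and regulation, of which 20 were tested. Besides FAR1 and FACT, all 18 had a lower mean at WT 4D than at WT 3D, with log2 fold changes between -1.18 and -0.19. In 17 of these 18 the replicates of the 2 days did not overlap, which was so for 30.2% of all genes tested in either direction. Of the 18, 3 were called lower and 6 passed the adjusted p alone, where 0.55% and 2.47% of all genes tested did, so most of these declines did not pass the test one by one. The median of the 20 members was -0.93 on the log2 scale, against 0 over all genes tested.

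The 3 called members were an exporter, a hydroxylase and a regulator. ABCG6, a transporter needed for suberin deposition, was at 353, 337 and 390 CPM at WT 3D and at 193, 131 and 162 CPM at WT 4D, a log2 fold change of -1.15 ± 0.32 (adjusted p = 0.0234, edgeR). CYP86B1, which hydroxylates very long chain fatty acids of suberin, was at 156, 146 and 171 CPM and then at 95.8, 61.2 and 76.8 CPM (-1.02 ± 0.29, adjusted p = 0.0297, edgeR). MYB53, a MYB transcription factor of suberin gene regulation, was at 39.6, 39.9 and 43.7 CPM and then at 23.3, 16.5 and 21.3 CPM (-1.01 ± 0.23, adjusted p = 0.00332, edgeR). In each of the 3, replicate 2 of WT 4D was the lowest library. Without it no suberin gene was called lower, the median was -0.81, and the adjusted p was 0.143 for ABCG6 and 0.173 for CYP86B1 (edgeR). Without replicate 3 of WT 3D none was called lower either, with a median of -0.89. A fit of the 6 libraries alone called 6 lower, and 15 passed the adjusted p.

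Several abundant suberin genes were lower in mean without a call. CYP86A1, the fatty acid hydroxylase that makes the main suberin monomers, was at 689, 619 and 668 CPM at WT 3D and at 353, 240 and 281 CPM at WT 4D. These values did not overlap, but the fall of 1.18 ± 0.47 on the log2 scale had an adjusted p of 0.167 (edgeR). ASFT, the feruloyl transferase of suberin, was at 608 ± 36.2 and 318 ± 68.6 CPM, with a log2 fold change of -0.93 and an adjusted p of 0.12 (edgeR). GPAT5, the acyltransferase that joins suberin acids to glycerol, was at 149 ± 13 and 75.4 ± 15.7 CPM (-0.98, adjusted p = 0.0685, edgeR). ABCG20, another suberin exporter, passed the adjusted p (9.94e-07, edgeR) at a log2 fold change of -0.96, just short of the size threshold. FAR4, a reductase of the same kind as FAR1, changed least, with means of 120 CPM at WT 3D and 105 CPM at WT 4D and replicates that overlapped.

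CYP86A1 had a mean of 15.4 ± 5.4 CPM at 2D, 659 ± 36 CPM at 3D, 291 ± 57.2 CPM at 4D and 165 ± 13.2 CPM at 5D. ABCG6 went through 67.7 ± 10.5, 360 ± 27.2, 162 ± 30.9 and 83.4 ± 7.62 CPM on the same days. Both stood highest at 3D among the 12 wild type times. Set against 2D, the level at 5D was higher for CYP86A1 (adjusted p = 5.84e-06, edgeR), whereas ABCG6 did not pass the test (log2 fold change 0.30, adjusted p = 0.521, edgeR).

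**Figure D3:**
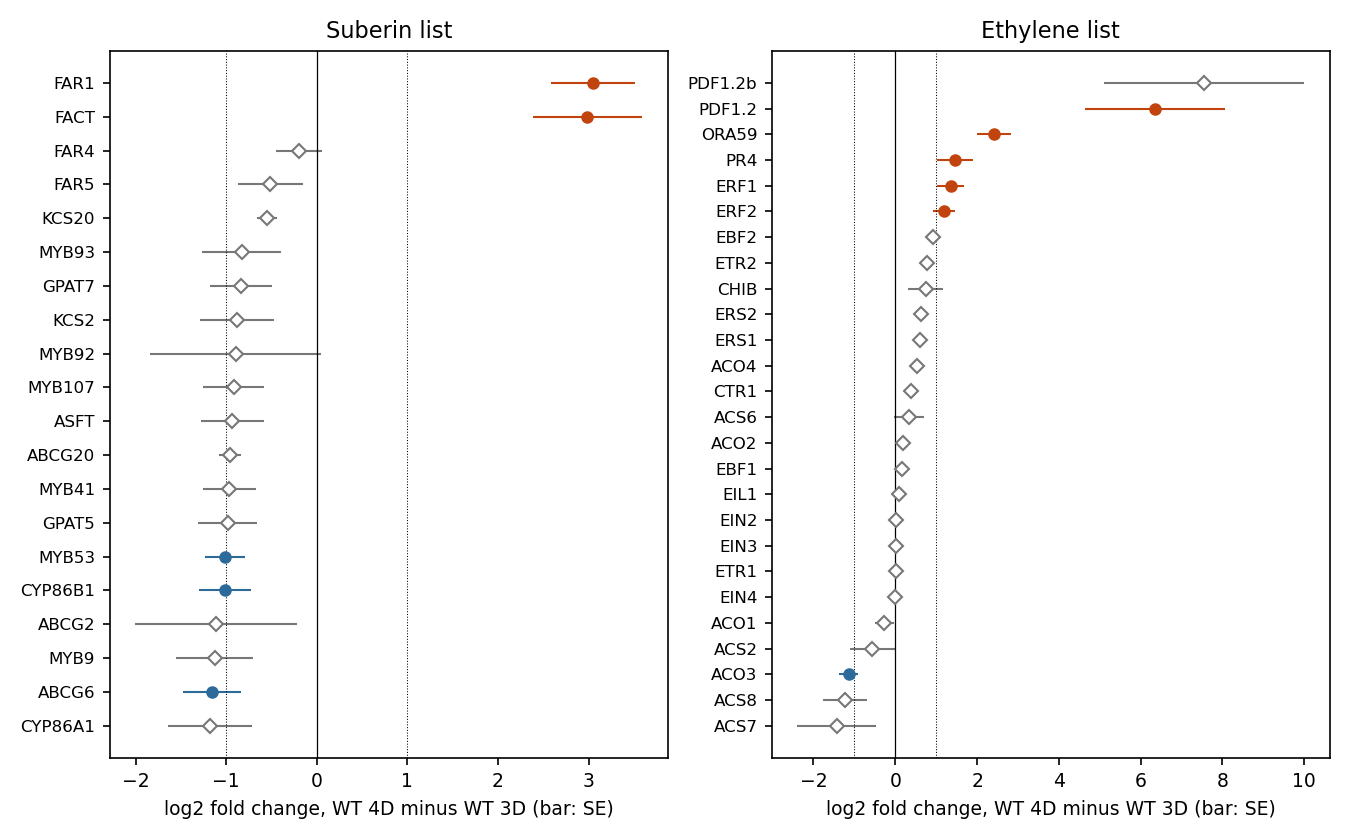
Log2 fold change from WT 3D to WT 4D, with its SE as a bar, of the 20 tested suberin genes (left) and the 26 tested ethylene genes with a count (right). Filled circles are called genes and open diamonds are genes not called; FAR1 and FACT stand alone on the higher side of the suberin list, and the ethylene list leans to the higher side.

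A few cutin genes also fell. Of 40 genes of cutin and wax, 36 were tested, 3 were called lower, none was called higher, 11 passed the adjusted p lower and none higher. Over all genes tested the shares called were 0.55% lower and 0.383% higher, and those past the adjusted p 2.47% and 2.33%. With DESeq2 the calls were again 3 lower and 0 higher, and by edgeR 2 members were higher at an unadjusted p under 0.05. Their median log2 fold change was -0.22, and unlike the suberin list it held 12 members with a higher mean at WT 4D and 22 with a lower one. LACS2, a long chain acyl-CoA synthetase of cutin synthesis, was at 188, 180 and 204 CPM at WT 3D and at 101, 79.8 and 89.2 CPM at WT 4D (-1.09 ± 0.18, adjusted p = 8.71e-05, edgeR). GPAT6, an acyltransferase known from floral cutin, was at 56, 50.5 and 58.1 CPM and then at 31.1, 22.2 and 27.4 CPM (-1.03 ± 0.20, adjusted p = 0.000812, edgeR). CYP86A4, a fatty acid hydroxylase of cutin, was at 6.57, 7.07 and 7.59 CPM and then at 3.01, 1.77 and 3.23 CPM (-1.41 ± 0.40, adjusted p = 0.0253, edgeR). None of the 3 had overlapping replicates. LACS2 stayed called with any one library left out. GPAT6 slipped under the size threshold without replicate 3 of WT 3D or replicate 2 of WT 4D (-0.92 in the latter case). CYP86A4 lost its call with any library other than replicate 1 of WT 4D left out, with adjusted p between 0.0506 and 0.175 (edgeR). Of the abundant wax genes, CER6, which elongates very long chain fatty acids, had means of 323 and 361 CPM and did not pass the test.

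Several plastid enzymes of fatty acid synthesis were also among the 129; they were picked out after their values were seen. FaTA, a thioesterase that releases new fatty acids, was at 137, 122 and 141 CPM at WT 3D and at 77.3, 53.4 and 60.6 CPM at WT 4D (-1.06, adjusted p = 5.51e-07, edgeR). ACP1, an acyl carrier protein, was at 95, 95.1 and 108 CPM and then at 56.6, 37.7 and 50 CPM (-1.05, adjusted p = 3.15e-06, edgeR). BCCP2, a subunit of acetyl-CoA carboxylase, was at 26, 25 and 26 CPM and then at 11.8, 7.45 and 10.4 CPM (-1.38, adjusted p = 5.79e-06, edgeR). In all 3 the WT 4D libraries lay well below the WT 3D libraries, with replicate 2 again the lowest. Further abundant transcripts that fell were AT4G38080, a hydroxyproline-rich glycoprotein (680, 583 and 704 CPM, then 362, 280 and 311 CPM), and AT2G23540, a GDSL lipase (399, 367 and 404 CPM, then 201, 152 and 173 CPM). Their log2 fold changes were -1.05 for AT4G38080 (adjusted p = 0.00833, edgeR) and -1.15 for AT2G23540 (adjusted p = 0.0372, edgeR). AT4G38080 overlaps a gene on its own strand and is uncertain for that reason; it lost its call without replicate 2 of WT 4D (adjusted p = 0.0674, edgeR), and AT2G23540 lost its call with any one library left out (0.0585 to 0.167).

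The enzymes for which the mutant lines of the series are named were measured too. RBOHE, an NADPH oxidase that makes reactive oxygen species, was at 46.8, 41.6 and 48.7 CPM at WT 3D and at 30.6, 20.2 and 26.5 CPM at WT 4D. The groups did not overlap, but the log2 fold change of -0.83 ± 0.27 did not pass the test (adjusted p = 0.0557, edgeR). RBOHE had been at 7.34 ± 1.3 CPM at 2D. GPAT4, an acyltransferase of cutin, was at 97.2, 94.1 and 108 CPM and then at 73.1, 59.2 and 66.9 CPM, lower by adjusted p (9.32e-05, edgeR) with a log2 fold change of -0.59 ± 0.10. GPAT8, its close relative, had means of 4.92 and 5.32 CPM. ATML1, the homeodomain factor of epidermal identity in the title of the series, was at 29.1, 29.2 and 25.8 CPM and then at 29.3, 31.2 and 29.7 CPM. Its log2 fold change was 0.10 (adjusted p = 0.759, edgeR), and 0 of the 15 tested genes of epidermal identity were called by edgeR or by DESeq2 (median 0.06; 1 higher and 1 lower at an unadjusted p under 0.05, edgeR).

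Ethylene genes were among those that rose. Of 28 listed genes of ethylene synthesis, signalling and response, 27 were tested. Of these, 5 were called higher and 1 lower, and 11 passed the adjusted p higher and 1 lower. Of all genes tested 0.383% were called higher and 0.55% lower, and 2.33% and 2.47% passed the adjusted p. The median log2 fold change was 0.34. Leaving out replicate 3 of WT 4D, or replicate 1 of WT 3D, left 2 called higher and 6 past the adjusted p.

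Among the transcription factors of the pathway, ORA59, which joins the ethylene and jasmonate signals at defence genes, was at 4.26, 5.67 and 4.27 CPM at WT 3D and at 17.1, 21.7 and 37.2 CPM at WT 4D. The lowest library of WT 4D was still above the highest of WT 3D, and the log2 fold change was 2.42 ± 0.41 (adjusted p = 9.58e-05, edgeR). ERF2, a further factor of the same family, was at 27.3, 32.2 and 32.1 CPM and then at 63.2, 69.4 and 75.9 CPM (1.19 ± 0.27, adjusted p = 0.00393, edgeR). ERF1, which acts directly below EIN3 in ethylene signalling, rose from a mean of 1.76 to 4.49 CPM (1.36 ± 0.33, adjusted p = 0.00703, edgeR); its adjusted p was 0.0714, 0.0548 and 0.0574 without replicate 1 of WT 3D, replicate 2 of WT 3D and replicate 3 of WT 4D. EIN2 and EIN3, the core of the signal path, had log2 fold changes of 0.03 each. Feedback components that ethylene is known to induce were higher by adjusted p (edgeR) at log2 fold changes under 1, namely EBF2 at a log2 fold change of 0.93 (4.67e-06), ETR2 at 0.78 (0.00123), ERS2 at 0.64 (0.00113) and ERS1 at 0.60 (9.32e-05). Of the synthesis enzymes, ACO4 was higher by 0.53 (adjusted p = 0.0207) and ACO3 fell by 1.14 on the log2 scale (adjusted p = 0.000988), both with edgeR.

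**Figure D4:**
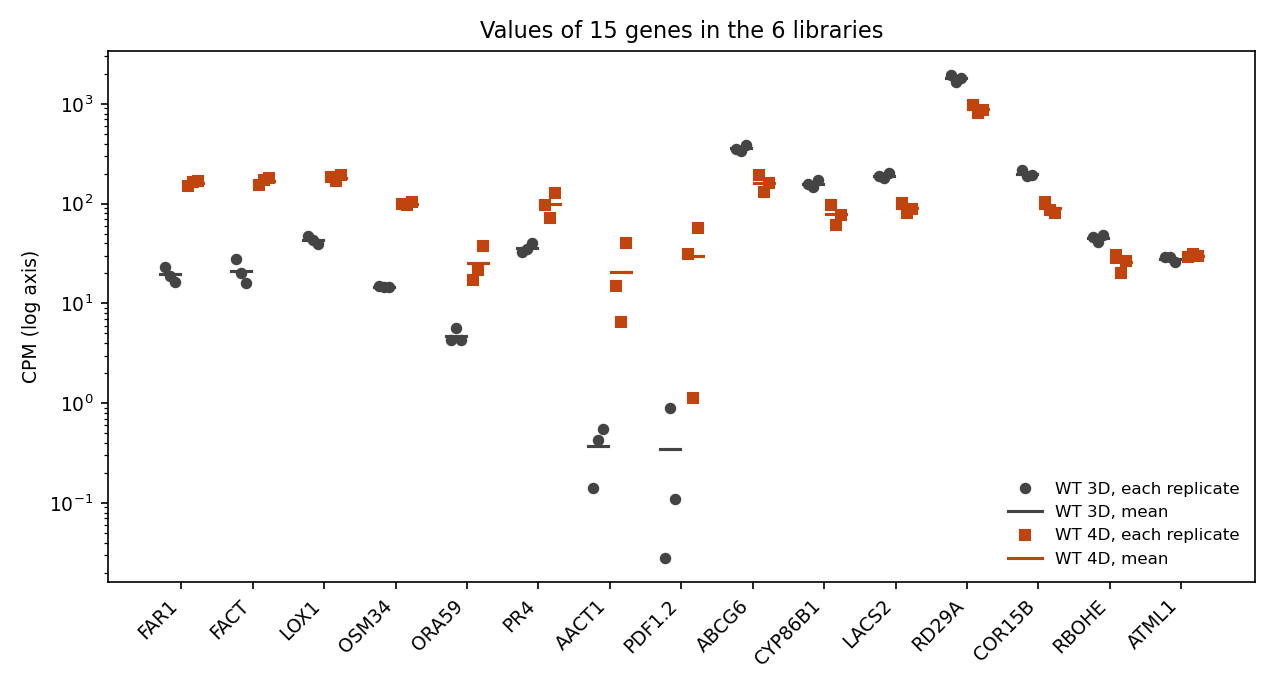
Level in CPM, on a log axis, of 15 genes in each of the 3 replicates of WT 3D (grey circles) and WT 4D (red squares), with bars at the means. The groups did not overlap in any of the 15 genes, as in 30.2% of all genes tested. This was so even for ATML1, which had about the same level on both days. AACT1 and PDF1.2 varied widely at WT 4D.

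The defence genes below these factors varied between replicates. PDF1.2, a defensin known as a marker of joint ethylene and jasmonate signalling, was at 0.0283, 0.903 and 0.109 CPM at WT 3D and at 31.3, 1.14 and 57.3 CPM at WT 4D. Replicate 2 of WT 4D was thus close to the highest WT 3D library, and the log2 fold change of 6.35 ± 1.72 passed with an adjusted p of 0.0198 (edgeR). The call was lost without replicate 1 of WT 3D (0.116), replicate 3 of WT 3D (0.0991) or replicate 3 of WT 4D (0.078), with only the groups compared (0.131) and with the replicate block (0.379). PDF1.2 also differed between replicates elsewhere, with a mean of 29.6 ± 46 CPM at 0h, and had fallen to 0.731 ± 0.676 CPM at 5D. Its relative PDF1.2c had the same pattern, with 27.8, 0.288 and 40.3 CPM at WT 4D, and lost its call without any one library of WT 3D or without replicate 3 of WT 4D (0.0818 to 0.138). AACT1, annotated as an aromatic acyltransferase, was at 0.142, 0.432 and 0.545 CPM and then at 15, 6.5 and 40 CPM (5.79 ± 1.22, adjusted p = 0.00185, edgeR), and stayed called with any one library left out. PR4, a chitin-binding defence protein, was at 32.7, 34.9 and 39.8 CPM and then at 96.6, 71.6 and 127 CPM (1.46 ± 0.44, adjusted p = 0.0409, edgeR); it lost the call with any one library left out (0.0589 to 0.191).

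The GCC-box (GCCGCC), the element bound by ERF proteins, was looked for in the promoters of the called genes, from 250 bases before to 50 after the annotated start and on both strands. It was found at 10 of the 90 genes that rose (11.1%), at 3 of 128 that fell (2.34%) and at 622 of 23280 tested genes (2.67%). The 10 included PDF1.2, ORA59, AACT1, FLS5, MAP18 and OSM34, and the 3 included GPAT6. The G-box (CACGTG) was at 10%, 12.5% and 8.33% of the same sets, the W-box (TTGACC or TTGACT) at 40%, 37.5% and 32.6%, the evening element (AAATATCT) at 3.33%, 9.38% and 5.78%, the AC element (ACCTACC) at 1.11%, 1.56% and 1.43%, and the L1 box (TAAATGTA) at 6.67%, 3.12% and 3.26%. No motif is contained in another, and a match is a description of letters, not of binding. The 250 bases upstream of the 3 genes are shown, 5′ to 3′ on the gene's strand, because they hold the box in genes that rose; capitals mark GCC-boxes and, in ORA59, also a G-box. They were read from the RefSeq assembly TAIR10.1 at chr5:17907639-17907888 (minus strand), chr1:1882657-1882906 (plus strand) and chr5:24608355-24608604 (plus strand).
PDF1.2: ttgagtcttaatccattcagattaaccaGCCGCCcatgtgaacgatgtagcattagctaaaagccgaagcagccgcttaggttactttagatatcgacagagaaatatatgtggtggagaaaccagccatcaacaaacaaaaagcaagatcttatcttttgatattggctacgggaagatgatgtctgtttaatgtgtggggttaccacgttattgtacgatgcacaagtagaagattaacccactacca
ORA59: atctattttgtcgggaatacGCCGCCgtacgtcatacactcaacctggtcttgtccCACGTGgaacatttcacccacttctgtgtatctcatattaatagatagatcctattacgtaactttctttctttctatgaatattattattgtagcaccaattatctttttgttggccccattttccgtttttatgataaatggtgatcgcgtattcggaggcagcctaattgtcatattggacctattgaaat
AACT1: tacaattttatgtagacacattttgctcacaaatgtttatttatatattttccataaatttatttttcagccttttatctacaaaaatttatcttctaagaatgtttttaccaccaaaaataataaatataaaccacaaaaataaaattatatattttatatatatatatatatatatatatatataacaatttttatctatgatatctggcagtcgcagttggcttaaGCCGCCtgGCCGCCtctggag
The box began 222 bases upstream of PDF1.2, 230 upstream of ORA59 and, in tandem, 21 and 13 upstream of AACT1. The G-box of ORA59 began 194 bases upstream.

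The rise with the smallest adjusted p was that of LOX1, a lipoxygenase that oxidises fatty acids outside the jasmonate branch. It was at 47.1, 43.6 and 39.7 CPM at WT 3D and at 186, 169 and 193 CPM at WT 4D, a log2 fold change of 2.07 ± 0.16 (adjusted p = 6.27e-14, edgeR). LOX1 had been between 9.61 and 18.8 CPM on average at all wild type times to 2D and was at 160 ± 2.25 CPM at 5D; it overlaps a gene on the other strand. The jasmonate list had 0 calls among 38 genes with edgeR and a median of 0.01, with 1 gene, JAZ6, higher by adjusted p at 0.87. DESeq2 called 1 of the 38 lower, and 1 was higher and 3 were lower at an unadjusted p under 0.05 (edgeR).

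Further genes that rose had varied annotations. AT3G23550, a MATE efflux carrier, was at 3.3, 6.41 and 4.12 CPM and then at 26.5, 32.1 and 56.5 CPM (3.05, adjusted p = 0.000338, edgeR). AT1G15125, a methyltransferase and the most abundant gene to rise, was at 165, 229 and 214 CPM and then at 495, 563 and 714 CPM (1.54, adjusted p = 0.00118, edgeR); it overlaps a gene on its own strand and is uncertain for that reason. AT4G27300, a receptor-like kinase, was at 76.4, 89.4 and 72.5 CPM and then at 167, 189 and 194 CPM (1.21, adjusted p = 1.3e-05, edgeR). All 3 stayed called with any one library left out. Low transcripts that rose steeply were FLS5, annotated as a flavonol synthase (0.481, 0.223 and 0.291 CPM, then 5.97, 10.7 and 7.19 CPM), GulLO2, an oxidase of sugar lactones (0.142, 0.118 and 0 CPM, then 2.69, 4.11 and 3.56 CPM), and MAP18, a microtubule-destabilising protein (0.439, 0.445 and 0.49 CPM, then 3.74, 4.46 and 3.45 CPM). FLS5 and GulLO2 were not called by DESeq2 (adjusted p 0.0738 and 0.1315).

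A further 3 genes were chosen after their values were seen. OSM34, an osmotin-like defence protein, was at 15.1, 14.5 and 14.5 CPM and then at 98.1, 96.4 and 104 CPM (2.76, adjusted p = 0.0029, edgeR). ABCA8, a transporter of the ABC family, was at 12.7, 9.18 and 7.95 CPM and then at 56.8, 64 and 60.4 CPM (adjusted p = 0.00197, edgeR). MAP70-5, a microtubule protein known from wall patterning in xylem, was at 6.6, 5.72 and 6.57 CPM and then at 32.4, 33.7 and 39 CPM (2.48, adjusted p = 3.15e-06, edgeR). In each, all libraries of WT 4D lay above all libraries of WT 3D. The senescence list had 2 calls of 23, both higher, where 0.383% of all genes tested were called higher. By adjusted p alone 5 members were higher and 2 lower, where 2.33% and 2.47% of all genes tested were. The list was mixed, with a median of 0.07, 13 members higher in mean and 10 lower. The 2 called genes were both NAC transcription factors, NAP at 32.4 and 65.4 CPM on average (1.01, adjusted p = 0.012, edgeR) and NAC055 at 3.38 and 9.27 CPM (1.47, adjusted p = 0.00305, edgeR). Leaving out replicate 3 of WT 4D ended both calls, with adjusted p of 0.124 each, and NAP was also lost without replicate 1 of WT 3D (0.125), replicate 2 of WT 3D (0.0666) or replicate 2 of WT 4D (0.0566). With RLE size factors and with DESeq2 the log2 fold change of NAP was 0.99, under the size threshold, which left 1 call. With only the groups compared 0 were called, at adjusted p of 0.112 for NAP and 0.116 for NAC055 (edgeR).

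RD29A and several cold-induced genes fell; the latter were taken one by one and no list of cold genes was tested. Of 31 listed genes of abscisic acid, 29 had a lower mean at WT 4D, 1 was called lower, 4 passed the adjusted p lower, 0 were higher by either rule, and the median was -0.28. Of all genes tested 0.55% were called lower and 2.47% passed the adjusted p lower. DESeq2 called 2 lower and 0 higher, and 1 was higher at an unadjusted p under 0.05 (edgeR). The called gene was RD29A, a marker of drought, cold and abscisic acid, at 1952, 1649 and 1829 CPM at WT 3D and 977, 805 and 869 CPM at WT 4D (-1.03 ± 0.23, adjusted p = 0.00337, edgeR). It slipped below the size threshold, to -0.99, without replicate 1 of WT 3D or replicate 2 of WT 4D. COR15B, a cold-induced protein of the chloroplast, was at 215, 188 and 192 CPM and then at 103, 86.4 and 80 CPM (-1.14 ± 0.24, adjusted p = 0.00147, edgeR). It stayed called with any one library left out, as did RCI2B, a small membrane protein induced by cold and salt, at 2.79 and 0.979 CPM on average (-1.51, adjusted p = 0.00208, edgeR). DREB1A, the cold-induced regulator of such genes and named here after its values were seen, was at 38.7, 29.5 and 27.9 CPM and then at 17.8, 12.5 and 10.5 CPM (-1.23, adjusted p = 0.00833, edgeR). GolS3, a cold-induced galactinol synthase, was at 50.9, 41.8 and 55.4 CPM and then at 20, 12.7 and 13.6 CPM (-1.68 ± 0.51, adjusted p = 0.0428, edgeR), and lost its call with any one library left out (0.0585 to 0.184). RD29A and COR15B were higher again at 5D, at means of 1278 and 135 CPM.

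Large falls also occurred in genes of little known function. AT2G47200, annotated as uncharacterized, was at 13.2, 35.7 and 37.1 CPM at WT 3D and at 3.45, 1.09 and 4.91 CPM at WT 4D (-3.19 ± 0.94, adjusted p = 0.0354, edgeR). Its call held without replicate 1 of WT 3D and was lost with any other library left out (0.0741 to 0.194) and with DESeq2. AT4G28940, a phosphorylase family protein, was at 14.9, 16 and 16.1 CPM and then at 4.8, 4.43 and 5.49 CPM (-1.67, adjusted p = 0.049, edgeR), with a call that any left-out library ended (0.11 to 0.183). AT4G20390, a membrane protein of family UPF0497 named after its values were seen, was at 93, 81.9 and 88.7 CPM and then at 35.9, 29.6 and 30.1 CPM (-1.46, adjusted p = 0.000239, edgeR). In none of these did the replicates overlap, as in 30.2% of all genes tested. The rule for named genes required this of AT2G47200 and AT4G28940, so it tests nothing.

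The lists of lignin, secondary walls and xylem, cell cycle, clock, photosynthesis, salicylic acid, glucosinolate and camalexin, and flavonoids had 0 calls with edgeR. Of these, DESeq2 called 1 lignin gene lower, as did counts divided by the spacing, the wild type libraries alone and only the groups compared. With only the groups compared, 1 gene of secondary walls and xylem and 1 of the cell cycle were also called lower. In glucosinolate and camalexin 1 gene was called higher with counts divided by the spacing and with the wild type libraries alone. The same count came without replicate 1 or replicate 3 of WT 4D. The 30 tested lignin genes had a median of -0.36 with 24 lower in mean, 3 lower by adjusted p and 16 at an unadjusted p under 0.05, and all 17 tested genes of secondary walls and xylem were lower in mean, with a median of -0.56 and 4 lower at an unadjusted p under 0.05. Of all genes tested, 2.47% were lower by adjusted p. The share of all genes past the unadjusted p was not counted. Counts by that rule, here and for the other lists, therefore have no background beside them. A pair of laccases outside the lists, LAC12 and LAC13, were called lower, at -1.02 and -1.01. Summed levels of 5 xylem markers ran from 40.1 to 47.2 CPM at WT 3D and from 22.6 to 39.4 CPM at WT 4D, and their part in these values was not tested. Of 32 cell cycle genes, 30 were lower in mean (median -0.47), 1 passed the adjusted p and 9 were lower at an unadjusted p under 0.05. The clock list (23 genes) had a median of -0.19 and 4 genes lower by adjusted p and 6 by the unadjusted p, among them PRR5 at -0.82; CCA1 and TOC1, which peak at opposite ends of the day, had log2 fold changes of -0.39 and -0.19 and did not pass. Photosynthesis (39 genes, median -0.07), salicylic acid (23, 0.04) and flavonoids (21, 0.01) had medians near that of all genes tested. Glucosinolate and camalexin (25 genes) had a median of 0.18, with 19 members higher in mean and 6 lower. By adjusted p, 2 of its members were higher and 0 lower, where 2.33% and 2.47% of all genes tested were. At an unadjusted p under 0.05, 1 photosynthesis gene was lower, 1 of salicylic acid was higher, 6 of glucosinolate and camalexin were higher and 1 lower, and 0 of the flavonoid genes passed (edgeR). Guard cell markers summed to between 236 and 320 CPM at WT 3D and between 227 and 294 CPM at WT 4D, and phloem markers to between 849 and 947 CPM and between 855 and 929 CPM. Wound regeneration and cambium (19 genes, median -0.35), RBOH oxidases (8, -0.56), stomatal lineage (11, -0.29) and sugar starvation (13, 0.01) also had 0 calls with edgeR. In the wound regeneration list 15 were lower in mean and 4 higher. At an unadjusted p under 0.05 (edgeR) 7 of them were lower and 0 higher, and DESeq2 called 1 lower.

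A pair of comparisons that share no library with WT 3D or WT 4D gave the direction of the called genes in other leaves. From rbohE 3D to rbohE 5D, a span of 2 days, all 90 genes that rose were also higher (46.7% of all genes tested were) and 70 of them (77.8%) were called higher. Over all genes 1490 (6.35%) were called there, 472 of them higher (2.01%), of which the 70 were 14.8%. No gene of the 90 was called lower. CYP82C2, AT2G30310, AT1G19530, JAL31 and AT2G39490 are counted in the 90 but were at the floor at rbohE 3D, so they had almost no room to be lower. Of the 129 that fell, 122 (94.6%) were lower there (51.6% of all genes) and 84 (65.1%) were called lower, which was 8.25% of the 1018 (4.34%) called lower; none was called higher. In rbohE leaves RBOHE itself was at 2.73 ± 0.131 CPM at 3D, against 45.7 ± 3.67 CPM in wild type. FAR1 rose by 2.87 (adjusted p = 3.74e-06), FACT by 2.70 (0.00231) and LOX1 by 1.55 (3.56e-11), whereas ABCG6 fell by 2.29 (4.78e-07) and MYB53 by 1.88 (9.44e-09) on the log2 scale in these libraries (edgeR).

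From WT 2D to WT 5D, which brackets the step and had 2075 calls (8.84%), the genes that rose and those that fell stood differently. Of the 90 that rose, 87 (96.7%) were higher (51.8% of all genes), 67 (74.4%) were called higher, which was 10.6% of the 632 (2.69%) called higher there, and 1 was called lower. Of the 129 that fell, 94 (72.9%) were lower (46.2% of all genes), 56 (43.4%) were called lower, which was 3.88% of the 1443 (6.15%) called lower there, and 20 were called higher. The 20 had fallen from day 3 to day 4 and still stood above their level of day 2 on day 5. Among the 90, 13 (14.4%) were at the floor at 2D, where every library had at most 3 counts.

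**Figure D5:**
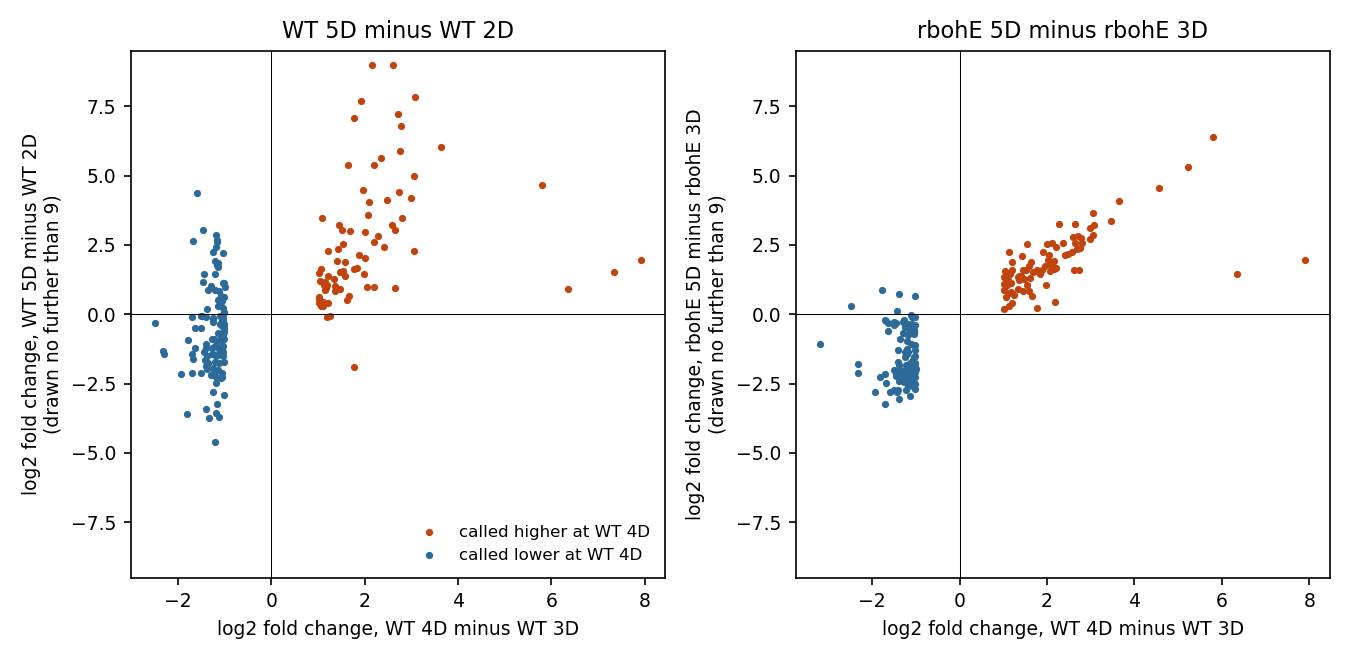
Log2 fold change from WT 3D to WT 4D of the called genes (horizontal axis) against their log2 fold change from WT 2D to WT 5D (left, 195 genes) and from rbohE 3D to rbohE 5D (right, 204 genes). Genes with a group at the floor are not drawn, and values are drawn no further than 9; red points (called higher) lie above 0 in nearly all cases in both panels, and blue points (called lower) lie mostly below 0 on the right and on both sides of 0 on the left.

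Over the 12 wild type times, 38 of the 90 genes that rose (42.2%) had their highest mean at 5D and 15 (16.7%) at 4D, against 8.19% and 2.89% of all genes tested. A further 15 were highest at 1h and 10 at 2h. Of the 129 that fell, 56 (43.4%) were highest at 3D, against 5.51% of all genes, 27 (20.9%) at 2h and 14 (10.9%) at 2D. The days 3 and 4 entered the choice of the genes, so these shares describe them and test nothing.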

How the data were processed

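Messenger RNA of wounded leaves was sequenced from stranded libraries, per the labels' protocols. Trimmomatic 0.39, HISAT2 2.2.1, StringTie 1.3.4 and the build TAIR10 are named in the submitters' processing notes, with no role or setting. The authors deposited 1 table of counts per gene, whole numbers and not scaled, for 32833 genes and 75 libraries. Its low values had a spacing of 2.63, so the deposited counts exceed the fragments by about that factor. All 75 columns were matched by name and 0 were left unmatched.

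Counts were scaled by TMM and fitted in edgeR 4.0.16 (glmQLFit, robust, and glmQLFTest; R 4.3.3), in 1 fit of all 75 libraries with 1 coefficient for each of 25 groups and no covariate. Genes were kept by filterByExpr (minimum count 10, minimum total 15), and p-values were adjusted over all 23475 genes tested. The SE was derived from the log2 fold change and its F statistic, and fitted fold changes used a prior count of 0.125. A group was at the floor when each library had at most 3 counts. Tests reflect counting error and the spread of replicates, and PCR copies were not marked. On simulated counts for 22137 genes, 50 of 50 genes seeded at log2 changes of 1.5, and of 2, were recovered in each direction, with 1 false call. The simulation gave every gene the same spread, had no other difference between groups and seeded only genes with a mean above 50 counts. It checked the code and does not give the recovery or the error rate in these data.

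The gene lists, the tests and the genes named were chosen with earlier results of these data known. The rule for named genes took called genes with a mean of at least 50 counts and no overlap of replicates. From these it took the 10 largest increases and decreases, the 5 most abundant in each direction, the 5 largest in each direction whose RefSeq product holds the words transcription factor, which none did, and up to 4 called members of each list. RBOHE, GPAT4, GPAT8, ATML1, PDF2, CCA1 and TOC1 were added. For genes named by size or abundance, replicates without overlap were thus required, and their lack of overlap tests nothing. Over all genes tested, 30.2% had no overlap. Genes named beyond the rule, among them CYP86A1, ASFT, GPAT5, ABCG20, FAR4, MYB53, ERF2, ACO3, EBF2, the ethylene receptors, the laccases, JAZ6 and PRR5, were chosen after their values were seen.

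No replicate pair agreed within sampling noise (chi-square per degree of freedom at least 12.2). That value was computed on the deposited counts, which exceed the fragments by a factor of about 2.63, so it overstates the departure. Same-numbered libraries of WT 3D and WT 4D did not deviate together (r of -0.12, -0.059 and -0.014), so the numbers were not used as pairs. Those of rbohE 3D and 5D had r of 0.21, 0.062 and 0.13, and those of WT 2D and WT 5D 0.068, 0.047 and 0.12. The numbers were not used as pairs there either. In fits of only the groups compared, a replicate block changed the calls from 1137 to 1291 for rbohE. For WT 5D against WT 2D it changed them from 2149 to 2122. Gene names came from the RefSeq table of TAIR10.1, which held 32548 of the IDs. Promoters were read from its nuclear chromosomes, and copies of genes were sought with blastn 2.17.0. Alternatives were RLE size factors, no filter, counts divided by the spacing, DESeq2 1.42.0, other sets of libraries, a replicate block and leaving out each library.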

Additional observations from a re-analysis of the deposited data

Results flagged for a closer look

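For 23 named genes, the step from day 3 to day 4 differed from the step from day 2 to day 3 by a test of the difference itself (edgeR, adjusted p under 0.05 and a log2 difference of at least 1). Over all genes tested 2.71% passed this test. Most of the 23 were named because they were called from WT 3D to WT 4D, a change that is part of the difference. Passing was thus favoured in advance, and the count of 23 tests nothing. Both steps share the day 3 libraries with opposite sign, so a high or low day 3 moves them apart, and each difference is a description of the turn at day 3. A positive difference means that the later step was the more positive. FAR1 was not among the 23, with a difference of 1.31 (adjusted p = 0.436, edgeR). In the barrier genes among the 23 the later step was the lower one. Their log2 differences were -3.56 for ABCG6, -3.44 for CYP86B1, -3.46 for LACS2, -3.97 for GPAT6, -3.13 for CYP86A4 and -1.67 for GPAT4. For RBOHE, an NADPH oxidase, the later step was lower by -3.47. The same held for AT4G38080 (-4.96), AT2G23540 (-4.71), AT3G58550 (-6.78), AT3G43110 (-8.79), AT4G28940 (-6.99), AT3G15830 (-3.53), AT5G46610 (-3.22), AT3G01795 (-2.25), AT1G71000 (-2.24) and RCI2B (-1.87). AT3G58550 differs from the rest in that it rose in both steps, less in the later one. AT3G58550 and AT3G43110 were near 0 at 2D, with log2 fold changes of 8.94 and 7.19 from WT 2D to WT 3D. The size of their differences is uncertain for that reason. The later step was the higher one for AT3G23550 (3.43), NAC055 (2.72), AT1G15125 (2.17), NAP (2.16), ERF1 (1.95) and AT4G27300 (1.24). FACT and AT2G47200 also passed this test but were at the floor at 2D, so no value is given.

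Against the step from day 4 to day 5, which shares the day 4 libraries with opposite sign, 10 named genes differed, where 0.515% of all genes tested did. These too were called from WT 3D to WT 4D, so passing was again favoured in advance. The earlier step was the higher one for PDF1.2c (14.35), PDF1.2 (11.76), AACT1 (7.12), FLS5 (4.38), AT3G23550 (3.44), FAR1 (2.85), ORA59 (2.64) and LOX1 (2.26), and the lower one for COR15B (-1.73) and RD29A (-1.57). PDF1.2 and PDF1.2c had low levels in replicate 2 of WT 4D, so their values rest on the other 2 libraries of that day. Groups held 3 libraries, so single libraries were not tested as outliers.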

How the results depend on the processing

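The 219 calls of WT 4D against WT 3D became 237 with RLE size factors, 201 with no filter, 321 with counts divided by the spacing and 290 with the wild type libraries alone, of which 214, 201, 211 and 208 were among the 219. DESeq2 called 215 genes lower. A fit of only the groups compared called 359 genes, 137 higher and 222 lower, and the replicate block in that fit called 323, with 202 lower; 184 and 175 of these were among the 219. Leaving out 1 library gave 111 to 228 calls, 58 to 91 higher and 53 to 137 lower, fewest without replicate 2 of WT 4D. By adjusted p alone the counts were 1128, 548 higher and 580 lower. The same rule gave 6789 for WT 5D against WT 2D, 4547 for rbohE, 3664 for WT 3D against WT 2D, 1307 for WT 5D against WT 4D, 10371 and 11119 for WT 4D and WT 3D against 0h, and 1169 and 255 for the step differences against the step before and after. WT 5D against WT 4D ranged from 183 to 315 calls with 1 library left out, with 183 without replicate 3 of WT 4D and 190 without replicate 3 of WT 5D. The 121 calls against the step after became 214 with DESeq2, 189 with the wild type libraries alone, 270 with only the groups compared, 251 with the replicate block and 32 to 105 with 1 library left out, with 32 and 43 without replicates 3 and 2 of WT 4D. The cause was not tested. Of 39 named called genes, 13 were called under every alternative, and none changed sign. Of all single-gene values, 121 fell below the threshold and 3 rose above it. Low genes are limited by depth, since a fragment is worth about 2.63 counts.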

Other observations

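Enzymes of cell death and of the cell wall were also among the called genes, and they were picked out here after their values were seen. MC7, a metacaspase, was at 0.326, 0.641 and 0.436 CPM at WT 3D and at 3.22, 3.45 and 3.17 CPM at WT 4D (log2 fold change 2.80 ± 0.39, SE, adjusted p = 3.15e-06, edgeR). ALPHA-VPE, a vacuolar processing protease, was at 9.16, 6.44 and 4.29 CPM and then at 24.3, 25.3 and 27.5 CPM (1.95 ± 0.52, adjusted p = 0.0166, edgeR). CEP2, a cysteine protease, was at 2.44, 2.37 and 1.6 CPM and then at 7, 8.79 and 8.5 CPM (1.92 ± 0.55, adjusted p = 0.0358, edgeR). The replicates of the 2 days did not overlap for any of these proteases. Of 151 tested genes annotated with pectin, 1 was called higher and 6 lower, where 0.383% and 0.55% of all genes tested were. This family was picked from several taken by annotation words, of which some, such as WRKY and heat shock, had 0 calls. AT1G23200, a pectin methylesterase family member, was at 8.67, 9.78 and 6.99 CPM and then at 30, 29.3 and 31.7 CPM (1.84 ± 0.16, adjusted p = 6.97e-12, edgeR), the second smallest adjusted p of the comparison. QRT2, a polygalacturonase, was at 98.5, 107 and 115 CPM and then at 59.4, 43.2 and 50.8 CPM (-1.06 ± 0.30, adjusted p = 0.0281, edgeR). BGAL8, a beta-galactosidase, was at 59.8, 64.5 and 68.6 CPM and then at 31.5, 24.8 and 31.1 CPM (-1.14 ± 0.18, adjusted p = 4.53e-05, edgeR).

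A further 3 genes called higher, also picked after their values were seen, act on hormones. CKX5, which degrades cytokinin, was at 14.3, 14.3 and 14.5 CPM and then at 29.6, 29.3 and 28.1 CPM (1.02 ± 0.20, adjusted p = 0.000777, edgeR). PYL5, a receptor of abscisic acid, was at 2.27, 2.11 and 2.74 CPM and then at 4.48, 5.82 and 7.93 CPM (1.36 ± 0.23, adjusted p = 6.18e-05, edgeR). GA2OX8, which inactivates gibberellin, was at 0.765, 0.576 and 0.381 CPM and then at 1.59, 2.92 and 1.91 CPM (1.89 ± 0.39, adjusted p = 0.00146, edgeR). No replicates overlapped between the days in these 3 genes. One called gene rested on a single library, since CYP82C2 was at 32.4 CPM in replicate 2 of WT 4D and at 0 in its other replicates.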
